A study of Mus musculus with 7 samples.

Results

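Intra-TAD anchors are CTCF sites predicted to hold the feet of chromatin loops that lie inside a topologically associating domain (TAD). The 287 anchors described here had no peak of the cohesin subunit Rad21 under them in the pooled data. They were chosen from the authors' class list of CTCF sites in mouse liver, as intra-TAD anchors on chr1 to chr19 that shared 0 bp with any peak of the pooled Rad21 list. They made up 3.20% (95% interval 2.85 to 3.58%) of the 8978 autosomal intra-TAD anchors, and 18.2% of all 51203 autosomal sites of the class list had no Rad21 peak. On the other chromosomes 3 of 74 intra-TAD anchors had none, and they were left out.

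The livers came from male CD-1 mice (strain Crl:CD1(ICR)) 8 weeks of age, for which the labels name no treatment. Crosslinked chromatin was immunoprecipitated for CTCF (4 libraries) or for Rad21 (3 libraries), and each factor was deposited as 1 pooled list of peaks. No genotype or treatment was compared, so every group below is a class of sites in the same pooled lists. The study's methods pair CTCF and Rad21 libraries and leave 1 CTCF liver without a match, but the sample titles share no mouse label between the factors, so which libraries came from the same liver is not clear. The flags described below came from livers of other studies. Whole liver holds hepatocytes and other cell types, and a site bound in few cells cannot be told apart from one bound weakly in many.

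CTCF is a zinc finger protein that binds a long, directional DNA motif. Cohesin is a ring-shaped complex that is thought to extrude DNA loops until it meets CTCF, and it is held mainly where the motif points toward the inside of the loop, so that loop anchors tend to carry convergent motifs. Besides Rad21, the ring carries either Stag1 or Stag2, which are alternative subunits, and topoisomerase Top2b, which relieves torsion in DNA, is often found at the same places. Cohesin without CTCF is common at enhancers in liver.

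The study's methods required a cohesin peak in at least 1 liver at a CTCF site before it could anchor an intra-TAD loop, and the absence described here refers to the pooled Rad21 list alone. Set beside the 287 sites were 3 groups, all on chr1 to chr19. They were 8691 intra-TAD anchors with a Rad21 peak, 440 TAD anchors without one, and 6916 lone CTCF sites, the authors' class without cohesin, that carried a scored motif and no Rad21 peak. All values come from pooled peaks with no value per library. Intervals are therefore 95% intervals for counting error over sites (Wilson intervals for shares, Newcombe intervals for differences of shares, order statistics for medians), they do not cover variation between mice, and no test was possible.

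The motif letters of 10 of the sites with the highest CTCF scores show what kind of sequence CTCF occupied there. They were read from mm9 on the motif strand, 5′ to 3′. Capitals mark the 19-bp occurrence that matched the CTCF matrix best and lower case marks 5 flanking bases on each side, and the coordinates are those of the capitals.
E330013P04Rik untranslated exon (chr19:60236974-60236992, − strand): ttgggTCGCCAGGAGGGGTCGCTAttgaa
Scarb1 intron (chr5:125758828-125758846, − strand): cttccCTGCCACTAGGGGGATCGGtatgg
Cd244 intron (chr1:173494593-173494611, − strand): accaaTAGCCTCTAGGGGGCTCTCttcag
Prdm2, intergenic (chr4:142838157-142838175, − strand): agcacTGACCAAAAGAGGGCGCAAgacat
Ttyh1 intron (chr7:4071032-4071050, + strand): gtgggAGCCCAGGAGAGGGCGGAGcaacg
Dusp3 untranslated exon (chr11:101832871-101832889, − strand): tgccaTGGCCAGCAGGGGGCACTGttgag
Nkx2-2 intron (chr2:147004693-147004711, − strand): gtgtgTGGCCGCTAGGAGGCGCCCaagcg
Fgd5 intron (chr6:92016281-92016299, − strand): catggCGGCCAGCAGAGGGCACTGcagct
Iyd, intergenic (chr10:6784203-6784221, − strand): aactaCTTCCAGTAGGGGGCCTTAaaact
Hmcn2, intergenic (chr2:31154991-31155009, − strand): agtcaCAGCCTCTAGAGGGTGTTCctgca

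All 10 held the paired C at positions 4 and 5 of the motif and most of the run of G that follows its middle, while the ends differed. Their motif scores (log-odds of the match, as the authors deposited them) ran from 12.2 near Hmcn2 to 25.8 in Dusp3, so high CTCF signal was not limited to near-perfect motifs.

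By peak score, CTCF binding at these anchors was weaker than at intra-TAD anchors with Rad21 and stronger than at lone sites without it. The peak score, 10 times the −log10 q that MACS2 gave the pooled peak, had a median of 582 (533 to 646), with quartiles of 369.5 and 968 and a range of 132 to 3617. At intra-TAD anchors with Rad21 the median was 3084 (3039 to 3129), or 5.30 times as high. TAD anchors without Rad21 had a median of 511 (473 to 552), and lone sites without Rad21 267 (258 to 270). CTCF score was among the criteria by which the authors chose anchors, and it is given as a description.

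**Figure D1:**
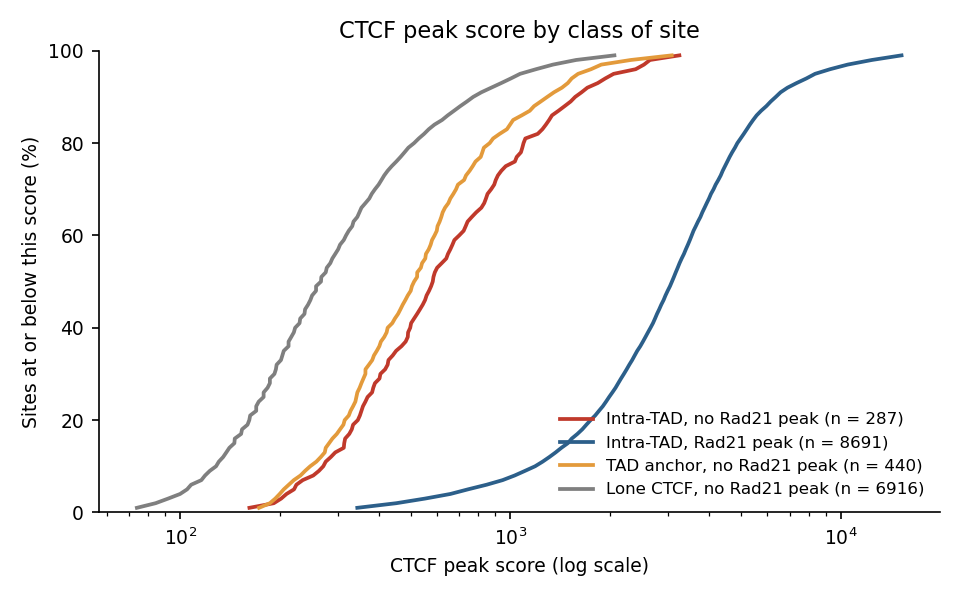
Share of sites (y axis, percent) at or below each CTCF peak score (x axis, log scale), 1 line per class of site. The line for the 287 intra-TAD anchors without a Rad21 peak (median 582) lies near that for TAD anchors without one (median 511) and far to the left of intra-TAD anchors with one (median 3084).

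On other scales of the same peaks the gap to the Rad21-bound anchors was smaller. The fold of the summit over its local background was 7.75 (7.32 to 8.58) at the median against 19.9 at intra-TAD anchors with Rad21, and 117 fragments stood under the median summit against 347. Against lone sites without Rad21 the ratio of medians was 2.18 by score and 1.21 by fold (6.39 at lone sites). Against TAD anchors without Rad21 the direction turned, from 1.14 by score to 0.888 by fold (8.72, 8.29 to 9.19, at TAD anchors). The local background was 12.97 fragments, below the 16.9 of anchors with Rad21 but above the 7.59 of TAD anchors and the 6.45 of lone sites that also lacked Rad21. The interval of that background median, 11.3 to 14.4 fragments, did not meet the intervals of either of the latter groups (7.16 to 8.27 and 6.34 to 6.53). Only 4 of the 287 exceeded the median score of anchors with Rad21. Of the 429 intra-TAD anchors that scored no higher than 582, 33.6% lacked Rad21, compared with 0.864% of the 8101 that scored over 1000.

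The strongest anchors without Rad21 stood near genes of many kinds. The highest score, 3617 with 341 fragments at the summit, belonged to chr19:60236790-60237248 in an untranslated exon of E330013P04Rik (ENSMUSG00000053117.4), and the nearest Rad21 peak was 16099 bp away. A score of 3385 with 418 fragments was listed at chr5:125758614-125759052, in an intron of Scarb1 (ENSMUSG00000037936.9), which encodes a receptor for high-density lipoprotein, 4221 bp from a Rad21 peak. In an intron of Cd244 (ENSMUSG00000004709.8), a receptor of natural killer cells, chr1:173494394-173494842 scored 3225 with the most fragments of any of the 287 (487), but only 11.2-fold over its background. By score all 3 stood above the median of Rad21-bound anchors (3084), but by fold the sites in Scarb1 (15.97) and Cd244 stood below theirs (19.9).

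A pair of neighbouring sites on chromosome 18, both on the − strand, scored 3419 and 2545, and the nearest coding start was that of Galr1 (ENSMUSG00000024553.7), a galanin receptor, 451132 and 427625 bp away. The remaining sites among the 10 highest scored between 2533 and 2822. They lay 35552 bp upstream of a start of Prdm2 (ENSMUSG00000057637.6), a histone methyltransferase gene, 27 bp upstream of a start of Ttyh1 (ENSMUSG00000030428.9) and inside an intron of a longer transcript of it, in an untranslated exon of the phosphatase gene Dusp3 (ENSMUSG00000003518.6), in an intron of the developmental regulator Nkx2-2 (ENSMUSG00000027434.9), and in an intron of Fgd5 (ENSMUSG00000034037.7). The Dusp3 site had the highest motif score of all 287, 25.8, and the Fgd5 site lay 25104 bp upstream of a start of Nr2c2 (ENSMUSG00000005893.8), an orphan nuclear receptor.

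At the other end, the 5 lowest scores ran from 132 to 170. The lowest, at chr5:130485371-130485786, lay 4909 bp downstream of a start of Asl (ENSMUSG00000025533.9), which encodes the urea cycle enzyme argininosuccinate lyase, and had 78 fragments at 2.83-fold over background. The next, in an intron of Mgat4b (ENSMUSG00000036620.8), scored 157 although its motif scored 20.7.

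Rad21 was absent from the sites but seldom far from them. The gap from the edge of the site to the nearest Rad21 peak was 23 bp at the least, 3450 bp (2796 to 4092 bp) at the median and 159889 bp at the most. It was below 250 bp at 9 sites, below 1000 bp at 62 (21.6%, 17.2 to 26.7%) and below 10000 bp at 228 (79.4%, 74.4 to 83.7%). The median gap was 6696 bp (5685 to 7968 bp) for TAD anchors and 7453 bp (7143 to 7817 bp) for lone sites without Rad21, so the intra-TAD anchors lay nearer to a pooled Rad21 peak than either. The gap is a continuous form of the measure that chose the sites.

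**Figure D2:**
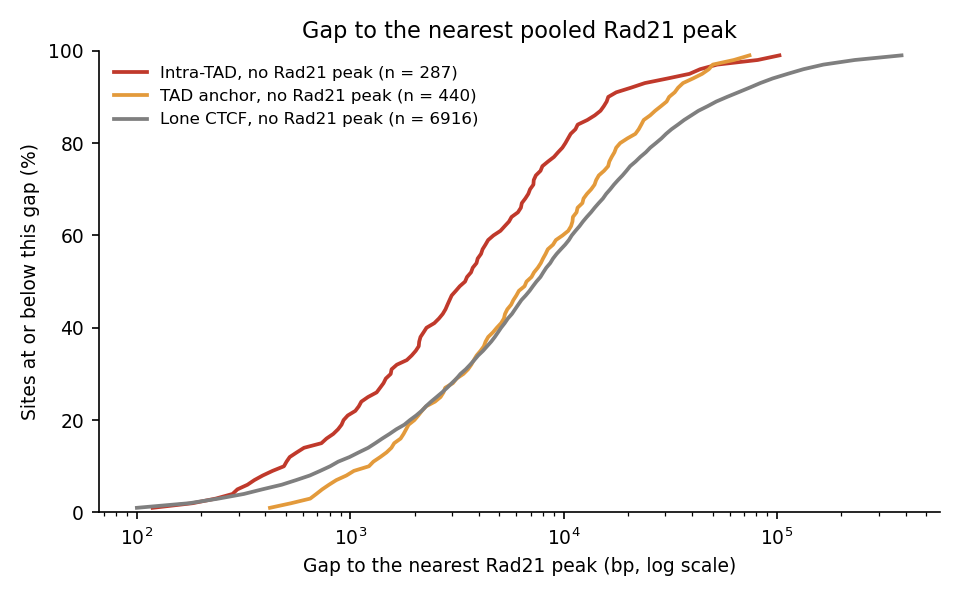
Share of sites (y axis, percent) whose gap to the nearest pooled Rad21 peak is at or below the value on the x axis (bp, log scale), for the 3 classes without a Rad21 peak. Intra-TAD anchors reach 50% at 3450 bp, TAD anchors at 6696 bp and lone CTCF sites at 7453 bp.

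The sites just inside the rule were chr7:133786127-133786450, an intergenic site near Ccdc101, at 23 bp from a Rad21 peak, chr15:76078080-76078510 in an intron of Grina at 72 bp, and chr11:102636132-102636461 in an intron of Adam11 at 97 bp. Just outside it, few bases were shared, such as 23 bp at a site in a coding exon of the immediate early gene Egr1, 99 bp near Zfhx2, 115 bp in Nipsnap3b and 146 bp in Tomm40. CTCF scores were 493, 846 and 790 inside and 315, 572, 240 and 280 outside. Farthest from any Rad21 peak, at 159889 and 103125 bp, were a pair of intergenic sites. They lay 492443 and 435739 bp from a start of the axon guidance gene Robo1. A site in an intron of Odz2 was 134861 bp from a Rad21 peak. An intergenic site 95392 bp from a start of Tdrd3 was 102511 bp from a Rad21 peak. Another, 501366 bp from a start of Igfbp7, was 101077 bp from a Rad21 peak. All 5 had CTCF scores between 230 and 1087.

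The nearest Rad21 peak usually sat on another anchor that pointed the same way. For 164 of the 287 (57.1%, 51.4 to 62.7%) it lay on an intra-TAD anchor with its motif on the same strand, and for 11 (3.83%, 2.15 to 6.73%) on an intra-TAD anchor with the opposite strand. It lay on a TAD anchor for 32, on another CTCF site for 49 and on no listed CTCF site for 31. At lone sites without Rad21 the counts were 468 of 6916 (6.77%) on the same strand and 570 (8.24%) on the opposite one, and at TAD anchors without Rad21 44 of 440 (10%) and 4 (0.909%). The Rad21 peaks in question were strong where they lay on same-strand anchors (median score 1148) and weak where no CTCF site was listed (median score 54.0).

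Measured between summits, the nearest same-strand intra-TAD anchor with Rad21 was 7659 bp (6250 to 9727 bp) away at the median, compared with 47315 bp (44781 to 50015 bp) for Rad21-bound anchors and their next such neighbour, and 123181 bp (104213 to 151319 bp) for TAD anchors without Rad21. Within 10 kb such a neighbour stood at 165 of the 287 (57.5%, 51.7 to 63.1%) and at 2095 of 8691 (24.1%), a difference of 33.4 points (27.5 to 39.04). On the opposite strand the shares within 10 kb were 8.01% and 7.06%, a difference of 0.949 points (−1.72 to 4.71), and the median distances were 98603 bp (81305 to 115809 bp) and 81972 bp (79383 to 84201 bp). Motif strand and position both entered the authors' choice of anchors, and their processing joined loops that shared 98% of their length between livers, so that loop ends need not lie on the same site in each. The part of that step in these distances was not tested.

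**Figure D3:**
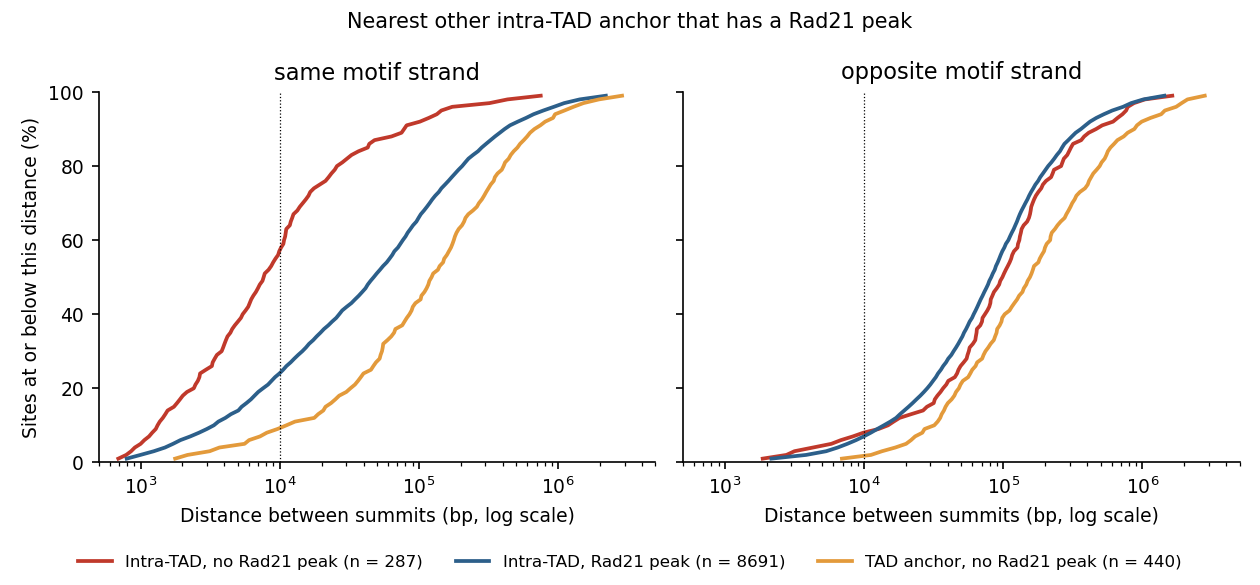
Share of sites (y axis, percent) with another intra-TAD anchor that has a Rad21 peak at or below each distance between summits (x axis, bp, log scale), on the same motif strand (left) and on the opposite one (right). The dotted line marks 10 kb, where the line for anchors without a Rad21 peak stands at 57.5% on the left and 8.01% on the right.

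Close same-strand neighbours were also common at weak anchors with Rad21. Among sites that scored no higher than 968, the third quartile of the 287, 124 of 215 (57.7%) anchors without Rad21 and 295 of 637 (46.3%) with Rad21 had one within 10 kb, a difference of 11.4 points (3.64 to 18.8). CTCF scores still differed within this range, with medians of 482 and 621. In each of 4 equal groups of the 287 by CTCF score the share with such a neighbour was 55.6 to 59.2%, and in the lower 3 groups the interval of the difference from Rad21-bound anchors included 0.

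The neighbour had the higher CTCF score in 154 of the 165 (93.3%), and the nearest one at any distance did in 270 of all 287 (94.1%). Only 3.28% of anchors with Rad21 scored at or below the median of the 287, so the classes themselves set this share. The neighbour within 10 kb lay on the side to which the motif of the member pointed, the inside of a loop anchored there, in 105 (63.6%, 56.1 to 70.6%). The 165 sites had a local CTCF background of 18.9 fragments at the median and 134 fragments at the summit, while the other 122 had 6.46 and 89.5. Their scores were alike in size (medians of 583 and 575.5), although the fold was 6.58 in the first set and 10.2 in the second.

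The nearest anchor in convergent order, which could close a loop with the site, was 147277 bp (130636 to 163060 bp) away at the median, farther than for Rad21-bound intra-TAD anchors (106104 bp, 103507 to 109506 bp) and nearer than for TAD anchors without Rad21 (264156 bp). That partner itself lacked Rad21 at 7 of the 287 sites (2.44%). The sites were spread thinly along the genome. Only 6 lay within 10 kb of another of the 287, and the share of intra-TAD anchors that lacked Rad21 ran from 2% on chromosome 13 to 5.33% on chromosome 18.

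The flags for Stag1, Stag2 and Top2b were not used to choose the sites, but they are not independent of that choice. The Stag subunits belong to the same complex as Rad21, and a Stag1 or Stag2 flag stood at 99.3% of intra-TAD anchors with Rad21. The authors marked each CTCF site by overlap with peaks of Stag1, Stag2 and Top2b from public liver data of other laboratories. The Stag2 flag was present at 137 of the 287 (47.7%, 42.0 to 53.5%), the Stag1 flag at 81 (28.2%, 23.3 to 33.7%) and the Top2b flag at 26 (9.06%, 6.26 to 12.9%). Over all autosomal sites of the class list the shares were 88.3%, 70.8% and 55.1%, each far above that of the 287. Only 18.2% of those background sites lacked a Rad21 peak. The shares depended on how absence of Rad21 was defined. When only a Rad21 summit within 100 bp of the CTCF summit counted as presence, 469 anchors had none, with Stag1 at 48.8% and Top2b at 32.6%. When only Rad21 peaks of score 100 or more counted, 527 had none, with Top2b at 14.4%. A Stag1 or Stag2 flag stood at 158 (55.1%, 49.3 to 60.7%).

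Intra-TAD anchors with Rad21 carried the Stag2 flag at 99.1%, the Stag1 flag at 97.0% and the Top2b flag at 79.97%. The differences were −51.4 points (−57.1 to −45.6), −68.8 points (−73.7 to −63.3) and −70.9 points (−73.8 to −66.9). Against the other classes without Rad21 the anchors hardly stood apart. TAD anchors without Rad21 had shares of 55.0%, 33.9% and 6.14%, and all 3 intervals of the differences included 0. Lone sites without Rad21 had 50.2%, 22.9% and 5.29%. The Stag1 and Top2b shares of the intra-TAD anchors were higher than these by 5.28 points (0.281 to 10.8) and 3.77 points (0.911 to 7.68), and the difference in Stag2 was −2.44 points (−8.27 to 3.45).

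Among the anchors without Rad21, the low flag shares were not limited to those with the lowest CTCF scores. From the lowest to the highest of the 4 groups by CTCF score, the Stag1 share was 19.4%, 37.5%, 28.2% and 27.8%, and the Stag2 share 52.8%, 43.1%, 43.7% and 51.4%. Rad21-bound intra-TAD anchors in the same score ranges had Stag1 shares of 61.9%, 81.7%, 88.4% and 97.4% and Stag2 shares of 84.8%, 94.4%, 96.0% and 99.3%, which rose with CTCF score. The Top2b share was 5.56%, 12.5%, 14.1% and 4.17% without Rad21 and 27.6%, 30.0%, 45.5% and 77.3% with it. The flag was rarer without Rad21 in all 12 of these comparisons, with no interval of the difference reaching 0. The difference in Top2b ranged from −17.5 points in the second group to −73.1 points in the highest. Scores were not matched in that highest group, where the medians were 1409 without Rad21 and 2403 with it. In the lower 3 groups the medians were 289 and 285, 485.5 and 472.5, and 741 and 773. The median over all Rad21-bound intra-TAD anchors was 3084, so by median even the highest group without Rad21 was weak on their scale.

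**Figure D4:**
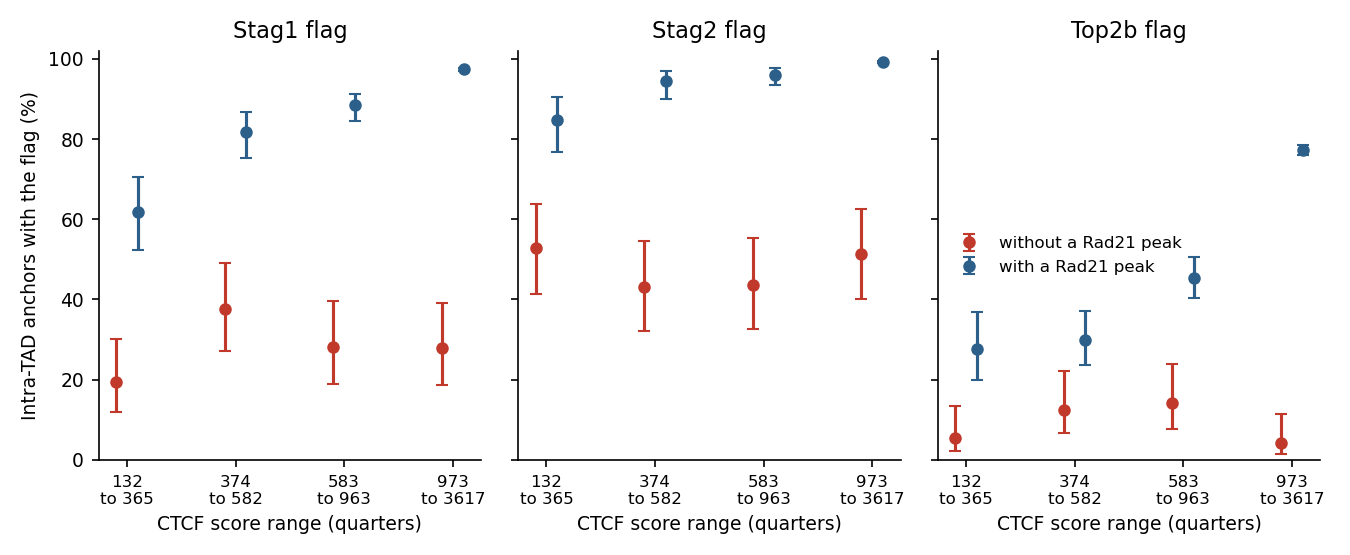
Share of intra-TAD anchors (y axis, percent) with the Stag1, Stag2 or Top2b flag in 4 ranges of CTCF score that divide the 287 anchors without a Rad21 peak into equal groups (71 or 72 sites each). Bars are 95% Wilson intervals. Every point for anchors without a Rad21 peak lies below the point for anchors with one, with Top2b at 4.17% against 77.3% in the highest range, where median CTCF scores were 1409 and 2403.

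The 2 Stag subunits often did not mark the same anchors. Of the 158 with either flag, 60 had both, 77 had Stag2 alone (48.7%, 41.1 to 56.5%) and 21 had Stag1 alone (13.3%, 8.86 to 19.5%). Of the 8631 Rad21-bound anchors with either flag, 8411 had both and 17 (0.197%) had Stag1 alone. Stag1 alone was found at 10.04% (6.99 to 14.2%) of TAD anchors without Rad21 that had either flag and at 5.96% (5.24 to 6.77%) of such lone sites. Stag2 alone was found at 44.6% of such TAD anchors, 57.0% of such lone sites and 2.35% of such Rad21-bound anchors. All 3 flags were present at 10 of the 287 (3.48%), against 79.0% of anchors with Rad21, 4.55% of TAD anchors and 2.40% of lone sites without it. Top2b alone was flagged at 4 of the 287.

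Sites far from Rad21 carried a Stag flag more often than sites near it. At 10 kb or more from a Rad21 peak 42 of 59 (71.2%) had a Stag1 or Stag2 flag, against 116 of 228 (50.9%) nearer, a difference of 20.3 points (6.20 to 32.2). The far sites had a median CTCF fold of 11.9 and a median local background of 5.99 fragments, the lowest value found among the 287. The 62 sites within 1 kb of a Rad21 peak, only part of the 228 nearer ones, had 5.97 and 22.9. The part of the local background in the flags was not tested. The gap that split the sites is a continuous form of the measure that chose them. Whether the other classes without Rad21 show the same difference was not tested.

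None of the 3 flags was present at 125 anchors (43.6%, 37.9 to 49.3%), compared with 51 of 8691 anchors with Rad21 (0.587%) and 10.2% of all autosomal sites of the class list. TAD anchors and lone sites without Rad21 had 38.9% and 46.2%, and the differences of 4.69 points (−2.59 to 11.98) and −2.61 points (−8.35 to 3.29) included 0. Their CTCF scores had a median of 570, near the 582 of all 287, and their motif scores one of 16.7. The strongest were the sites in Scarb1 (3385), Dusp3 (2589) and Nkx2-2 (2555). Next was chr10:6783938-6784463, which is 22119 bp downstream of a start of the iodotyrosine deiodinase gene Iyd (ENSMUSG00000019762.4) and scored 2496 with 281 fragments. The site at chr6:103245960-103246448, 214645 bp upstream of a start of the adhesion molecule gene Chl1 (ENSMUSG00000030077.8), scored 2005. The rest of the 10 strongest scored 1599 to 1946 and lay in a coding exon of Tekt4, upstream of Srrm3, in an intron of Ece1, upstream of Ache, which encodes acetylcholinesterase, and upstream of Tmem220. At these sites CTCF was listed with no peak in any of the 3 cohesin lists.

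The motif of these anchors differed from that of Rad21-bound anchors at a few positions. The median motif score was 16.4 (16.1 to 16.8) against 17.98 (17.9 to 18.1), and it was 16.4 at TAD anchors and 15.4 at lone sites without Rad21. On average 12.4 ± 1.48 (SD over 287 sites) of the 19 positions held the base that led at Rad21-bound anchors, against 12.7 ± 1.65 in those anchors. The least variable positions were alike in both. At positions 5, 10 and 13 the leading base stood at 99.0%, 100% and 98.3% of the 287 sites and at 99.2%, 99.6% and 98.9% of the Rad21-bound anchors. At position 4, the first of the paired C, it stood at 90.9% and 84.6%.

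Positions 7, 11, 12, 8 and 1 differed most, and were picked out because of it. C stood at position 7 in 29.3% (24.3 to 34.8%) of the 287 and in 54.1% (53.0 to 55.1%) of anchors with Rad21, and G stood there in 63.4% and 42.0%. At position 11, G was found in 37.3% and 57.0%, and A in 62.0% and 42.5%. At position 12 the leading base G was more frequent without Rad21, in 80.8% (75.9 to 85.0%) against 63.1% (62.1 to 64.1%), and T was less frequent, in 14.98% against 32.2%. The Dusp3 and Fgd5 sequences printed above show the G at positions 7 and 12, with G and A at position 11. These shares lay near those of the other classes without Rad21, where C at position 7 stood in 34.8% of TAD anchors and 27.9% of lone sites, and G at position 12 in 76.8% and 78.1%.

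Among sites scoring no higher than 968 the difference was −12.7 points (−19.5 to −5.40) at position 7, −16.0 points (−23.1 to −8.34) at position 11 and 19.5 points (12.7 to 25.6) at position 12. At position 8 the difference within this range was −5.33 points, and its interval (−11.7 to 1.70) included 0. A CpG dinucleotide, the target of DNA methylation, was part of the motif at 137 of the 287 (47.7%, 42.0 to 53.5%) and at 46.9% of anchors with Rad21, but at 37.7% (33.3 to 42.3%) of TAD anchors and 36.9% (35.7 to 38.0%) of lone sites without Rad21.

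**Figure D5:**
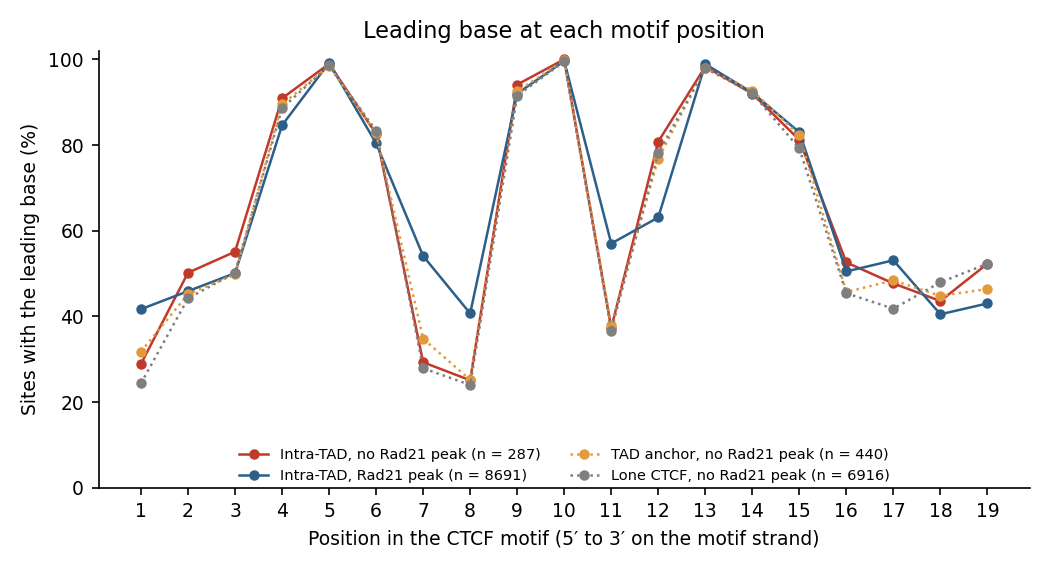
Share of sites (y axis, percent) that hold the leading base of Rad21-bound intra-TAD anchors at each of the 19 motif positions (x axis). Anchors without a Rad21 peak follow the other classes without one and part from Rad21-bound anchors at position 7 (29.3% against 54.1%), position 11 (37.3% against 57.0%) and position 12 (80.8% against 63.1%).

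The summit lay within 50 bp of the motif centre at 255 sites (88.9%, 84.7 to 92.0%), with a median offset of 16.0 bp, against 93.1% of Rad21-bound anchors and 82.4% of lone sites. Motifs were on the + strand at 150 sites (52.3%). In the 300 bp around the summit the GC content was 45.7% at the median (45.0 to 47.0%), lower than at Rad21-bound anchors (49.7%) and close to the 45.3% of both other classes.

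Few of the anchors lay at promoters. Within 1 kb of the start of a protein-coding gene stood 17 of the 287 (5.92%, 3.73 to 9.28%), compared with 980 of 8691 intra-TAD anchors with Rad21 (11.3%), a difference of −5.35 points (−7.65 to −1.93), and with 21.9% of all autosomal sites of the class list. The share was 2.95% at TAD anchors and 6.95% at lone sites without Rad21, and both differences had intervals that included 0. By position of the summit, 134 sites (46.7%) were intergenic, 127 (44.3%) lay in introns of protein-coding genes, 17 in untranslated exons, 7 in coding exons, and 1 each in an exon and in an intron of a non-coding gene or pseudogene.

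Promoter sites carried Top2b more often than the rest. The flag was present at 6 of the 17 within 1 kb of a start (35.3%) and at 20 of the 270 farther away (7.41%), a difference of 27.9 points (9.51 to 51.4). At anchors with Rad21 the same shares were 85.3% and 79.3%. The 6 were at Dctn1, which encodes a subunit of dynactin, at Hpn, which encodes the hepatocyte protease hepsin, at Uevld, at Lrrc27, at the kinase gene Pkn3 and at Dnajc22, with CTCF scores of 841, 757, 743, 687, 580 and 407. The Pkn3 site, 65 bp downstream of a start, was 639 bp from a same-strand anchor that scored 27204.

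A pair of sites flanked a start of Hpn (ENSMUSG00000001249.8), 489 bp to either side of it. The site at chr7:31883615-31884026, downstream of the start, scored 757 and had Top2b alone of the flags. The site at chr7:31884621-31884957, upstream of that start, scored 388 and had none. Each of these sites lay in an untranslated exon of Hpn. Both shared the same Rad21-bound neighbour on the − strand, at 984 and 1962 bp, which scored 4249. Apart from Ttyh1, the highest score within 1 kb of a start was 1709, upstream of Refbp2 (ENSMUSG00000060244.1).

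The nearest genes were counted by families of symbols, at the 287 sites and at anchors with Rad21. The 287 sites had 280 different nearest protein-coding genes. None of those was a cytochrome P450, a conjugation enzyme (Ugt, Sult or Gst), an apolipoprotein or a serpin. At the share seen around Rad21-bound anchors, 0.380%, 0.115%, 0.0690% and 0.230%, few would stand near 287 sites, and no difference was detectable at this number. Plg (ENSMUSG00000059481.4), which encodes plasminogen, a protein that liver secretes, was the only gene of the complement and coagulation symbols searched. Its site, chr17:12564214-12564557, lay 7093 bp upstream of a start, scored 658 and had no flag. Of the nuclear receptor symbols searched, only Nr2c2, named above, was found. Each of these families thus stood at 0.348% of the 287. At anchors with Rad21 the shares were 0.23% for complement and coagulation and 0.391% for nuclear receptors. The symbols searched left out other liver genes, and the nearest genes of the 287 included Pros1 (protein S of the coagulation pathway) and the urea cycle gene Ass1 (argininosuccinate synthase), at sites that lay 160365 and 3909 bp from a start, scored 827 and 1534 and had both Stag flags. These 2 were named after their values were seen. Membrane transporter genes (Slc, Slco and Abc) were nearest to 7 sites (2.44%), against 2.59% of anchors with Rad21. Zinc finger genes with the symbols Zfp, Zkscan or Zscan were nearest to 2 sites (0.697% against 1.12%), chemosensory receptor genes to 2 (0.697% against 0.437%), keratin genes to 1 (0.348% against 0.115%), and Hox, protocadherin and histone genes to none, with 0.0805%, 0.0690% and 0.0575% around anchors with Rad21.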

How the data were processed

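Reads of each factor were merged by the authors and mapped to mm9 with Bowtie2, peaks were called with MACS2, and blacklisted regions were removed. The deposited peak score is 10 times −log10 q, the deposited fold is a ratio of summit fragments to local background with a pseudocount of 1, and the deposited −log10 p belongs to the same count. Fragments and background were recovered from these 2 columns, and came out whole (within 0.05) at all intra-TAD and TAD anchors used and at 99.986% of the lone sites. The deposited motif score is the authors' log-odds match to the CTCF matrix. The class list has no header, and the order of its flags was taken from the study's listing.

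Intra-TAD anchors were chosen by the authors from motif direction, motif score and the strength of both factors, in loops that held a transcription start and were found in all 4 livers.

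All 52436 class-list sites matched a peak of the CTCF list by interval. The best matrix match in each site was found again on the reference NCBIM37 (mm9), with scores within 0.5 of those deposited and the same strand at all 287 members. Genes came from GENCODE vM1. Sequence was printed for none of the sites on chromosome 18. Named sites were the 10 highest and 5 lowest CTCF scores, the 15 highest within 1 kb of a start, the 5 farthest from and nearest to Rad21, the 5 other anchors that shared fewest bases, the 10 highest without flags, and those nearest genes of liver families. Of these sites, 2 are not reported here. Membership, lists and named sites were fixed with earlier results of these data known, and the comparison of neighbours, the motif positions and sites scoring up to 968 were added after seeing the data. Repeat content was not computed, since the reference was not masked. The work was done in Python 3.11.15 with pysam 0.24.0, pandas 2.3.3, SciPy 1.17.1 and NumPy 2.4.6 (plots with Matplotlib 3.10.9), and functions were checked on simulated data.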

Additional observations from a re-analysis of the deposited data

How the results depend on the processing

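No paired analysis was possible because each factor was deposited as 1 pooled list with no value per library, and for the same reason no library could be left out. The number of anchors (287) was 278 and 225 without those within 250 or 1000 bp of a Rad21 peak and 290 on all chromosomes, but rose to 469 when a Rad21 summit within 100 bp of the CTCF summit was asked for and to 527 when only Rad21 peaks of score 100 or more counted. With these 2 wider definitions the Stag1 share was 48.8% and 41.4%, the Stag2 share 66.3% and 64.5%, and the Top2b share 32.6% and 14.4%, since anchors with a listed Rad21 peak then entered. Within the 4 score groups the difference from Rad21-bound anchors moved outside its interval for Stag1 (−42.5, −44.2 and −60.2 points in the lower 3), for Stag2 (−32.0 points in the lowest) and for Top2b (−22.1, −17.5 and −31.4 points in the lower 3), with no change of direction. The median of the 287 was 18.9% of that of Rad21-bound anchors by score and 38.9% by fold. A window of 5 kb around starts held 21.6%. The share with a same-strand neighbour within 10 kb was 64.8% with TAD anchors counted, 50.2% without sites within 1000 bp of Rad21, and 8.01% on the opposite strand. Of 41 alternatives to 11 results, 21 stayed within the interval of the reported value (or within 1.5 times for counts) and 20 moved. Counts, shares and distances of the 287 alone have no direction to change. The results that compare classes have one, and none of them reversed.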
